A study of Mus musculus with 26 samples.

Results

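Spleens of mice given ovalbumin (OVA) and a synthetic copy (mimic) of miR-676-3p, a microRNA, under the code MN, were set against spleens of mice given saline, under the code CT. The code in each library's label chose the members, 5 MN and 5 CT libraries of 26 in all. MN mice received OVA at 0.05 mg per day into the peritoneum on days 1, 3 and 5, and the mimic at 7 mg per kg into a tail vein on day 3, after that day's OVA. CT mice received saline into the peritoneum in place of OVA and no mimic. All were female BALB/c mice aged 8 weeks, 20 to a group per the labels, with no genetic change named. Another 5 libraries with the same treatment as MN carry the code MM, and 6 OS and 5 ON libraries are from mice given OVA alone. The labels do not define the codes, name no scrambled mimic among the treatments, and do not say whether each library is 1 mouse. The p-values therefore measure the spread between these libraries, which may be technical in part. Saline differs from MN in both agents, so the effects of OVA and of the mimic cannot be told apart in this comparison.

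OVA is an egg-white protein to which mice can be sensitised, after which B cells make antibodies and helper T cells make allergy-linked cytokines. The spleen filters blood and holds B-cell follicles, T-cell zones, marginal-zone cells that meet blood-borne antigen, and a red pulp of macrophages, granulocytes and developing red cells. A microRNA is loaded into an Argonaute protein and pairs, mainly through a short seed near its 5′ end, with messenger RNAs, which it represses or destabilises. A mimic is a synthetic duplex that supplies extra mature microRNA.

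The mature microRNA and its precursor are shown because the seed sets which messenger RNAs could pair with the mimic. Both come from RefSeq on GRCm38.p6, where the precursor lies at chrX:100381097-100381185 on the + strand and the mature form at chrX:100381151-100381171. Bases 2 to 8, the seed, are in capitals in the mature form, and the mature form, bases 55 to 75, is in capitals in the precursor.
mmu-miR-676-3p: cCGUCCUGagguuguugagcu
Mir676 precursor: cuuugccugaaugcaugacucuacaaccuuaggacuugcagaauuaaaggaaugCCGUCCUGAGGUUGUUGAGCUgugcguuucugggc
The sources used here do not give the chemical design of the injected mimic. Mir676, the entry for the endogenous precursor, was listed at 0 in all 10 libraries. Poly(A) libraries of long fragments do not capture a short duplex, so the mimic itself was not measured. Eda, the gene whose span holds Mir676 and which encodes the signalling ligand ectodysplasin A, stood at 0.340, 0.220, 0.303, 0.167 and 0.342 FPKM in MN, against 0.219, 0.305, 0.150, 0.634 and 0.240 FPKM in CT. FPKM is fragments per kilobase of gene, scaled to library size. These values overlap and are too low for Eda to enter the test.

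Markers of spleen identity were expressed in sum in all 10 libraries. Each of 12 such markers passed the filter for testing, which is set over all 26 libraries. Their FPKM summed to 911 to 1093 in MN and 782 to 1134 in CT. Their mean log2(FPKM + 1), relative to the CT mean, was low in CT 4, at -0.63. It was 0.08 to 0.31 in the other CT libraries and -0.06 to 0.20 in MN. Each library held 14540369 to 16960619 reads. Genes of the pancreas, which adjoins the spleen, took at most 0.00383% of reads in these 10 libraries, against 15.4% in MM 2, 30.3% in ON 2 and 4.63% in ON 3.

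CT 4 stood apart from the other 9 libraries before any gene was compared. It had 20681 genes with a value above 0, against 24846 to 25843 in MN and 24679 to 25501 in the other CT libraries, and 413 genes with a single read, against 2270 to 2562 in MN and 2254 to 2515 in the other CT libraries. Mitochondrially encoded genes took 6.62% of its reads, against 1.42% to 1.59% in MN and 1.44% to 1.81% in the other CT libraries. Across the genes tested, on the log2(FPKM + 1) scale, its correlation with the others was 0.870 to 0.891, while pairs of the other 9 correlated at 0.962 to 0.983. Genes are not independent, so these values describe the libraries only. In CT 4 the mitochondrial transcripts mt-Rnr1 (6054 FPKM, against 444 to 1005 in the other CT libraries) and mt-Nd5 (3974 FPKM, against 529 to 584) stood high. Atp5k, a subunit of ATP synthase, was low there (4.12 FPKM, against 65.1 to 112), as was Cebpb, a myeloid transcription factor (1.19 FPKM, against 33.3 to 57.7).

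MN 4 was marked by genes of granulocyte precursors. Elane, which encodes neutrophil elastase, stood at 241 FPKM in MN 4, against 28.7 to 84.7 in the other MN libraries, and Mpo, which encodes myeloperoxidase, at 131 FPKM, against 16.9 to 45.5. Ctsg and Prtn3, encoding cathepsin G and proteinase 3, showed the same order, with 120 and 186 FPKM in MN 4. Depth and library size did not set MN 4 apart. Values without CT 4, and without CT 4 and MN 4, are given beside the results they touch.

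**Figure D1:**
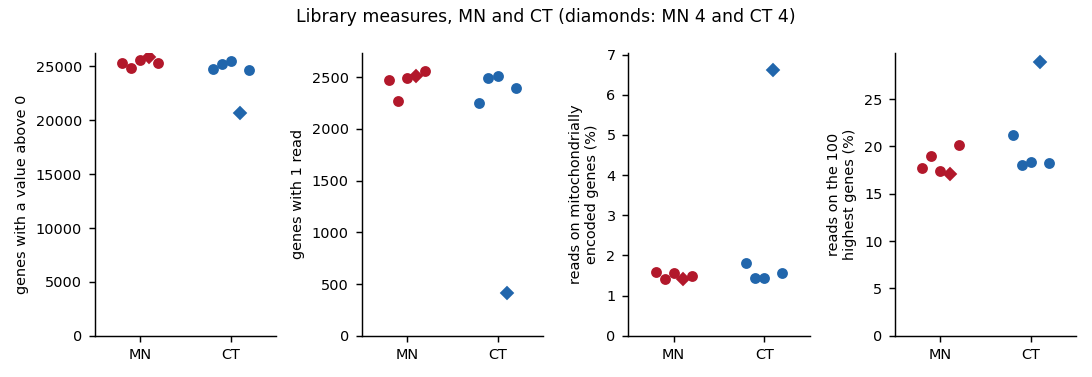
Genes with a value above 0, genes with a single read, the percentage of reads on mitochondrially encoded genes and the percentage on the 100 highest genes, 1 point per library, for MN (left) and CT (right). CT 4 (diamond) lies at 20681 genes, 413 single-read genes and 6.62% mitochondrial reads, away from the other 9 libraries in each panel.

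No gene of the 15672 tested differed between MN and CT past an adjusted p of 0.05 (limma over all 26 libraries, Benjamini-Hochberg adjustment, 0% called). The smallest adjusted p in limma was 0.910 and the smallest unadjusted p 0.000652. Unadjusted p fell under 0.05 for 451 genes, 2.88% of those tested, where 784 would stand there if p were spread evenly. Of these, 235 were higher in MN (1.5%) and 216 lower (1.38%). Without CT 4 the count was 152 (0.97%), and without CT 4 and MN 4 it was 123 (0.785%). With only MN and CT in the fit, the counts were 446 over the 10 libraries, 623 without CT 4 and 466 without CT 4 and MN 4, and again no gene passed the adjusted threshold. The main fit shares 1 estimate of the spread over all 26 libraries. Estimated library weights, lower for more variable libraries, were 0.24 to 1.1 in OS and 1.5 to 2.6 in MN. In CT they were 0.10 for CT 4 and 0.61 to 3.0 for the others. Why the counts lay under 784 was not tested, and they are no added evidence that MN and CT are alike.

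The precision bounds what could have been missed on the scale tested. The 95% interval of the MN minus CT difference reached a median of 0.33 log2 units either way. For 14203 genes, 90.6% of those tested, the whole interval lay within 1 unit either way on the log2(FPKM + 1) scale. This scale understates changes of low genes, so for them those limits are not a 2-fold bound in FPKM. Without CT 4 the interval lay within those limits for 14565 genes, 92.9%. The median difference over all genes was 0.01 log2 units, with 8179 genes higher and 7493 lower in MN. Without CT 4 the median was -0.01, with 7514 higher and 8158 lower. The 5 MN values all lay above the 5 CT values for 42 genes (0.268%) and all below them for 55 genes (0.351%). Among protein-coding genes, 96 of 11969 were higher and 150 lower in MN at an unadjusted p under 0.05. For antigen receptor segments the counts were 24 higher and 1 lower, of 322 tested.

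**Figure D2:**
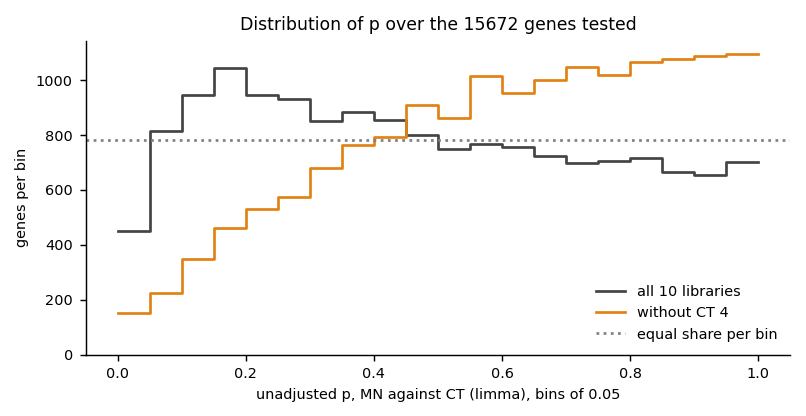
Number of genes per bin of unadjusted limma p for MN against CT, with all 10 libraries and without CT 4, against the even share of 784 genes per bin. The lowest bin holds 451 genes with all 10 libraries and 152 without CT 4, both under the even share.

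The genes with the smallest unadjusted p among those differing by at least 0.5 log2 units are given as values. Fkbp5, a co-chaperone of steroid receptors that glucocorticoids induce, is a protein-coding gene at chr17:28618068-28736501 on the - strand in the deposited table. Its levels were 9.26, 11.1, 22.7, 15 and 7.93 FPKM in MN, against 11.6, 6.46, 6.53, 7.12 and 8.57 FPKM in CT. MN 3 was the highest of the 10, and the groups overlapped through CT 1 and MN 5. The difference was 0.59 ± 0.23 log2 units (SE), with an unadjusted p of 0.0174 and an adjusted p of 0.910 in limma, and 0.56 without CT 4. Against OS, where Fkbp5 stood at 4.09 to 7.74 FPKM, it was higher in MN by 0.81 (limma adjusted p = 0.0450), a call lost in 12 of 26 alternatives. Without MN 2, MN 3, MN 4, OS 2, OS 3, OS 4 or OS 6 the adjusted p of Fkbp5 in limma was above 0.05, and it reached 0.146 without MN 3. The list of 17 tested glucocorticoid-induced genes did not rise with it, at a median of -0.50 in MN against OS. Of these 17, 2 were called higher in MN and 3 lower, against 1.29% and 1.6% of all genes tested.

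Derl3 and Mzb1, which serve protein folding and export in antibody-secreting and marginal-zone B cells, came next by role. Derl3 had 10.1, 12.2, 10.8, 16.5 and 8.71 FPKM in MN, against 8.47, 9.61, 9.31, 2.17 and 8.45 FPKM in CT. Mzb1 had 15.7, 18.9, 16.8, 26.6 and 15.1 FPKM in MN, against 10.7, 17.4, 17.1, 1.78 and 18.5 FPKM in CT. For both genes MN 4 was the highest and CT 4 the lowest. The differences of 0.65 for Derl3 and 0.73 for Mzb1 became 0.32 and 0.21 without CT 4, and 0.20 and 0.08 without CT 4 and MN 4. Pgam2, a muscle-type glycolytic enzyme, and Insl3, a relaxin-family hormone, followed the same course: CT 4 was lowest, at 0.711 and 0 FPKM, and differences of 0.57 and 0.80 became 0.17 and 0.25 without it.

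The other 7 genes named as higher were short entries, Mir1943, Mir7027, Mir7048, Mir1898, Mir7026, SNORA80E and Snord83b. They code for microRNA precursors or small nucleolar RNAs, of 58 to 135 bases, and rest on few reads. Mir7027 was covered by 6 to 12 reads in each MN library, against 0 to 5 in each CT library. CT 4 had 0 FPKM for all 7. Their differences of 1.05 to 1.3 log2 units were 0.31 to 0.88 without CT 4. Poly(A) selection does not target such RNAs, and reads from a host transcript cannot be told from reads of the short entry.

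Among the 12 genes named as lower in MN, Rpl30 differed most, by -1.23 ± 0.48 log2 units (limma unadjusted p = 0.0178). Rpl30 encodes a protein of the large ribosomal subunit and lies at chr15:34440651-34443786 on the - strand. It stood at 6.62, 7.43, 5.62, 7.89 and 5.98 FPKM in MN, against 18.6, 6.32, 22.6, 13.4 and 37.3 FPKM in CT. The MN libraries were close together, and CT 2 fell among them while the other 4 CT libraries lay above. Without CT 4 the difference was -1.31. Rpl17, also of the large subunit, had 80.5, 233, 136, 85.8 and 98.0 FPKM in MN, against 320, 228, 76.9, 617 and 224 FPKM in CT, a difference of -1.03 that was -0.69 without CT 4. Ribosomal protein genes have many near-identical pseudogenes, and the sources used here do not say how reads were divided between copies, so single ribosomal values are uncertain.

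For the other 10 genes named as lower, CT 4 held the highest value. Bpgm, the red-cell enzyme that makes bisphosphoglycerate, had 63.8, 101, 52.7, 57.7 and 125 FPKM in MN, against 99.8, 93.3, 123, 494 and 79.5 FPKM in CT. Ube2l6, a conjugating enzyme for ISG15, had 91.8 to 225 FPKM in MN, against 141 to 212 FPKM in the CT libraries other than CT 4, which stood at 839. Rps12, of the small ribosomal subunit, had 181 to 258 FPKM in MN, against 226 to 356 in 4 CT libraries and 1623 in CT 4. The remaining genes of this kind were Gstm5, Ube2r2, Minpp1, Bag1, Melk, Isca1 and Slc25a39. Over the 10 genes, differences of -0.83 to -0.51 became -0.38 to -0.19 when CT 4 was left out. What set CT 4 apart was not tested.

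**Figure D3:**
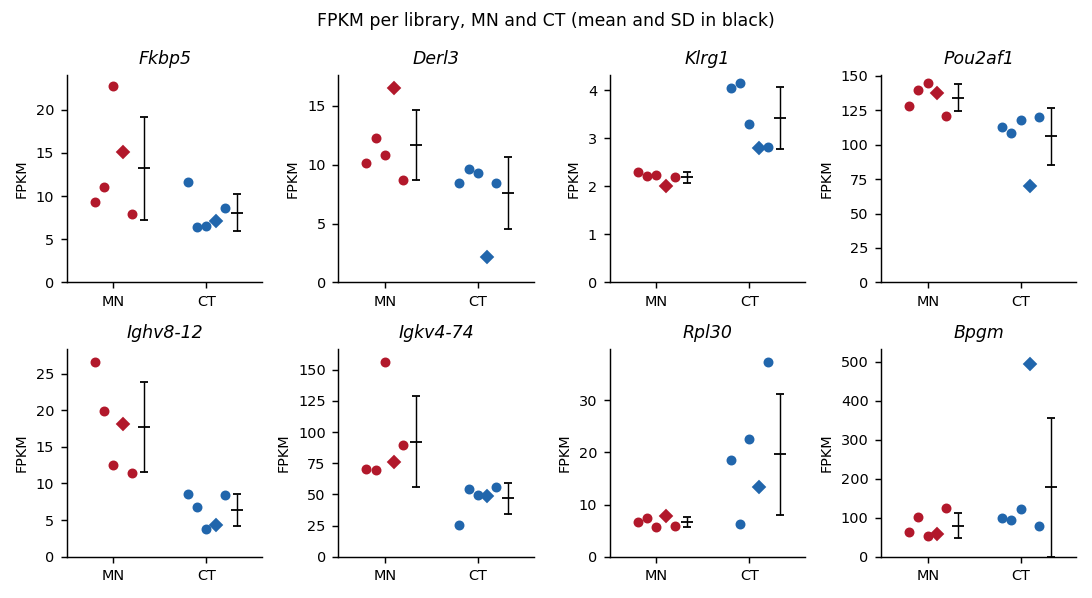
FPKM of 8 genes, 1 point per library, in MN (left) and CT (right), with mean and SD in black and MN 4 and CT 4 as diamonds. Klrg1 lies lower, and Pou2af1, Ighv8-12 and Igkv4-74 higher, in all MN libraries than in any CT library, while CT 4 alone holds the extreme value of Derl3 (2.17 FPKM) and Bpgm (494 FPKM).

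Cytotoxic and NK-cell genes held 1 of the clearer separations. Klrg1, an inhibitory receptor on effector T cells and NK cells at chr6:122247555-122259841, had 2.30, 2.21, 2.23, 2.00 and 2.18 FPKM in MN, against 4.05, 4.15, 3.30, 2.80 and 2.83 FPKM in CT. All MN libraries lay under all CT libraries. The difference was -0.46 ± 0.14 (unadjusted p = 0.00222, adjusted p = 0.910 in limma) and -0.51 without CT 4. Over 26 alternatives the limma adjusted p of Klrg1 ran from 0.0553 to 0.999954, so it came near the threshold in at least 1 setting and passed in none. Side by side, Klrg1 averaged 2.19 ± 0.111 FPKM in MN, 2.80 ± 0.991 in MM, 2.19 ± 0.382 in OS, 2.14 ± 0.379 in ON and 3.43 ± 0.650 in CT (SD, n = 5 or 6). Comparisons of these codes with CT share the CT libraries. Gzma, encoding the protease granzyme A, had 26 to 37.0 FPKM in MN, against 31.3 to 44.3 FPKM in CT, with overlap and a difference of -0.29. Ncr1, an activating receptor of NK cells, had 4.28 to 10.9 FPKM in MN, against 10.3 to 11.9 FPKM in CT, and differed by -0.43. MN 4 was its lowest library, and the difference was -0.25 without MN 4. Over the 17 tested genes of this list, 12 were higher in MN and 5 lower, with a median of 0.09. Without CT 4, 5 were higher and 12 lower, with a median of -0.08. In bulk spleen, fewer cells of a type and less RNA per cell cannot be told apart.

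T-cell lineage genes leaned upward by small amounts. Of 23 tested, 22 were higher in MN, with a median of 0.20, and 21 without CT 4, with a median of 0.08. Over all genes tested, 8179 were higher and 7493 lower, with a median of 0.01. None of the 23 had an unadjusted p under 0.05. By library, the list mean relative to CT was 0.10, 0.12, 0.27, 0.29 and 0.20 in MN. In CT it was 0.07, 0.18, 0.12, -0.43 and 0.07, with CT 2 and CT 3 within the MN range. Against the same CT libraries, the median of this list was 0.16 in MM, -0.03 in OS and -0.01 in ON. Cd3e, a chain of the T-cell receptor complex, had 11.0 to 13.6 FPKM in MN, against 5.12 in CT 4 and 9.46 to 11.8 FPKM in the other CT libraries. Cd5, a brake on receptor signalling, differed by 0.34, and by 0.07 without CT 4. Among 18 regulatory T-cell and co-inhibitory genes, 16 were higher in MN, with a median of 0.17, and 15 without CT 4, with a median of 0.07. Foxp3, which specifies regulatory T cells, had 2.28, 2.51, 2.85, 2.29 and 2.48 FPKM in MN, against 1.32, 2.47, 2.39, 0.718 and 2.56 FPKM in CT. The values of Foxp3 overlapped, and its difference of 0.32 was 0.15 without CT 4. Cd160, a co-inhibitory receptor, differed by 0.26 ± 0.12, and by 0.27 without CT 4. Gpr171, a co-inhibitory G-protein-coupled receptor, had 11.0 to 20.2 FPKM in MN, against 7.62 to 13.5 FPKM in CT, a difference of 0.49.

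Genes of the type 2 helper axis, which drive allergic responses, did not separate the groups. Of 16 listed, 12 were tested, 9 of them higher in MN, with a median of 0.17, and 7 without CT 4, with a median of 0.05. Il2rb, the beta chain of the receptors for interleukins 2 and 15, had 27.8, 33.1, 32.1, 27.4 and 26.9 FPKM in MN, against 21.5, 27.6, 25.7, 12.8 and 23.4 FPKM in CT. Its difference was 0.43 ± 0.16 (limma unadjusted p = 0.0122, adjusted p = 0.910), and 0.25 without CT 4. Maf, a transcription factor of interleukin-4-producing helper cells, differed by 0.20, and by 0.15 without CT 4. In the interferon-gamma axis, 13 of 21 tested genes were higher in MN, with a median of 0.02. Cxcr3, a chemokine receptor of type 1 effector cells, had 10.1 to 11.4 FPKM in MN, against 5.52 to 10.7 FPKM in CT, a difference of 0.37.

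B-cell lineage genes differed little between the groups. Of 20 tested, 14 were higher in MN, with a median of 0.07, and 11 without CT 4, with a median of 0.0022. Pou2af1, a co-activator that B cells need for germinal centres, was the 1 member of this list with no overlap (0.268% of all genes tested did so in this direction). It stood at 128, 139, 145, 137 and 121 FPKM in MN, against 113, 109, 118, 70.3 and 120 FPKM in CT. The closest pair, MN 5 and CT 5, were 121 and 120 FPKM, and the difference of 0.36 ± 0.14 was 0.22 without CT 4. Cd37, a tetraspanin of mature B cells, differed by 0.33, and by 0.05 without CT 4. All 11 tested germinal-centre genes were higher in MN, with a median of 0.15, and 0.13 without CT 4, none at an unadjusted p under 0.05. By library, their list mean relative to CT was 0.19, 0.45, 0.11, 0.37 and -0.19 in MN. In CT it was 0.07, -0.16, -0.06, -0.25 and 0.40, so the groups overlapped. Against CT, the medians of this list were 0.28 in OS, 0.15 in ON and 0.02 in MM, comparisons that share the CT libraries.

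Plasma cells and antibody genes were higher in most members. Of 15 plasma-cell genes, 11 were higher in MN, with a median of 0.16, and 12 without CT 4, with a median of 0.13. Eaf2, an elongation-factor partner induced in plasma cells, had 2.20 to 4.81 FPKM in MN, against 1.60 to 2.97 FPKM in CT, a difference of 0.39. Of 12 immunoglobulin constant regions, 10 were higher, with a median of 0.32. That median was 0.21 without CT 4 and 0.06 without CT 4 and MN 4. Ighg1, the IgG1 heavy chain, had 27.6, 42.4, 23.6, 166 and 17.4 FPKM in MN, against 41.4, 23.5, 7.24, 8.41 and 29.3 FPKM in CT. MN 4 held the highest value by far, and the difference of 1.05 was 0.28 without CT 4 and MN 4. Igha, the IgA heavy chain, at 231 FPKM in MN 4 against 99.0 to 135 in the other MN libraries, and the light chain Iglc1, at 1080 FPKM against 471 to 563, were also highest in MN 4. Ighe, the heavy chain of IgE, is given because of its part in allergy and was chosen after its values were seen. It had 0.914, 0.741, 0.481, 1.48 and 1.47 FPKM in MN, against 0.786, 0.463, 0.646, 0.377 and 0.662 FPKM in CT. The values overlapped, and the difference of 0.32 had a 95% interval from -0.23 to 0.88.

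Variable segments of the antibody genes, which each B-cell clone joins once, were higher in MN in most members. The heavy-chain list had the highest median among the lists of immune cells and their receptors. Of 78 heavy-chain segments tested, 69 were higher in MN, with a median of 0.44, and 70 without CT 4, with a median of 0.37. Of 109 light-chain segments, 88 were higher, with a median of 0.21, and 84 without CT 4, with a median of 0.22. By library, the mean over the heavy-chain list, relative to the CT mean, was 0.32, 0.32, 0.54, 0.64 and 0.36 in MN, against -0.80, 0.50, 0.15, -0.19 and 0.35 in CT. The CT libraries spread more than the MN libraries, and CT 2 and CT 5 lay within the range of MN. Of these segments, 2 of the heavy chain and 1 of the light chains lay higher in all MN libraries than in any CT library, as did 0.268% of all genes tested. Ighv8-12, at chr12:115611565-115612007, had 26.6, 19.9, 12.5, 18.1 and 11.4 FPKM in MN, against 8.52, 6.83, 3.81, 4.38 and 8.42 FPKM in CT, a difference of 1.33 ± 0.42 (limma adjusted p = 0.910). Igkv4-74, at chr6:69161810-69162381, had 70.3, 69.4, 156, 76.1 and 89.8 FPKM in MN, against 25.1, 54.2, 49.8, 48.7 and 56.2 FPKM in CT, a difference of 0.95 ± 0.29. Igkv4-74 was also higher in MN than in OS, at 20.0 to 52.9 FPKM, by 1.19 (limma adjusted p = 0.0212), a call lost without MN 3 (adjusted p = 0.0759 in limma) or OS 4 (0.0532). Segments share sequence, so reads of 1 family cannot be fully told apart.

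T-cell receptor segments went the same way. Of 47 tested, 36 were higher in MN, with a median of 0.21, and 36 without CT 4, with a median of 0.16. Trav7d-4, at chr14:53007210-53007849, had 2.19, 1.45, 1.69, 3.50 and 2.84 FPKM in MN, against 0.414, 0.678, 0.631, 0 and 1.02 FPKM in CT. Its groups did not overlap, and the difference of 1.11 ± 0.29 had an unadjusted p of 0.000701 and an adjusted p of 0.910 in limma.

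**Figure D4:**
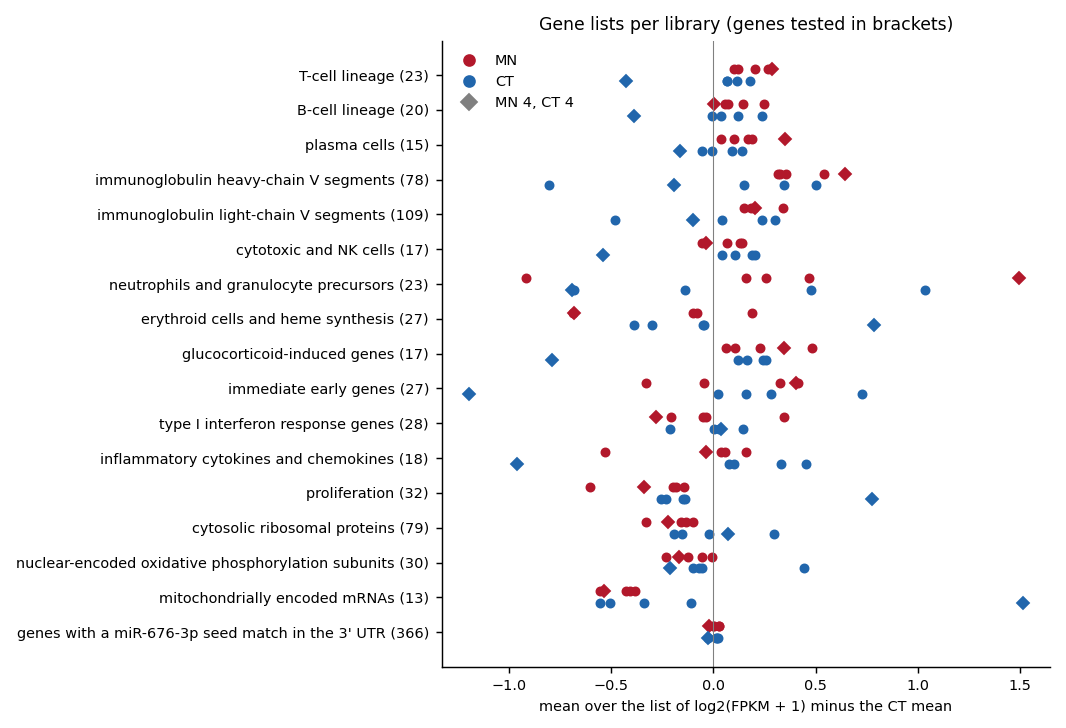
Mean log2(FPKM + 1) of 17 gene lists in each library, relative to the CT mean, with MN above CT in each row and MN 4 and CT 4 as diamonds. CT 4 lies at an end of the CT range for most lists, at 1.51 for mitochondrially encoded mRNAs and -1.19 for immediate early genes, and MN 4 lies at 1.49 for neutrophil genes.

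Granulocyte genes varied more within each group than between them. For 23 tested genes of neutrophils and their precursors, the list mean relative to CT was 0.16, 0.47, 0.26, 1.49 and -0.92 in MN, against 1.03, 0.48, -0.68, -0.69 and -0.14 in CT. Although 22 of the 23 were higher in MN, with a median of 0.27, the median was 0.10 without CT 4 and -0.15 without CT 4 and MN 4, when 4 were higher and 19 lower. Cebpe, a transcription factor of granule formation, had 10.4, 11.7, 12.5, 28.7 and 6.01 FPKM in MN, against 22.4, 12, 3.81, 1.38 and 9.77 FPKM in CT. Il1f9, an interleukin-1 family cytokine, differed by 0.57, and by 0.24 without CT 4 and MN 4.

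Genes of eosinophils, basophils and mast cells varied widely within each group. Prg2, the major basic protein of eosinophil granules, had 238, 54.6, 496, 116 and 150 FPKM in MN, against 14.9, 151, 81.1, 1.16 and 202 FPKM in CT. Its difference of 2.08 had a 95% interval from -0.89 to 5.05, and was 1.04 without CT 4. Ear6, an eosinophil ribonuclease, differed by 1.51, with an interval from -1.18 to 4.20. Hdc, which makes histamine, had 0.967 to 6.09 FPKM in MN, against 0.421 to 3.17 FPKM in CT, a difference of 0.48 that was 0.02 without CT 4 and MN 4. Of 20 tested genes of mast cells, basophils and eosinophils, 15 were higher in MN, with a median of 0.21, which was 0.02 without CT 4.

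Of 27 erythroid and heme-synthesis genes, 24 were lower in MN, with a median of -0.29. That median was -0.12 without CT 4, and -0.01 without CT 4 and MN 4, with 13 higher and 14 lower. Urod, an enzyme of heme synthesis, had 51.4 to 89.0 FPKM in MN, against 66.7 to 83.4 FPKM in 4 CT libraries and 212 in CT 4. Hba-a2, an alpha-globin gene with a near-identical copy, went against its list, with 1972, 3405, 1747, 2006 and 4579 FPKM in MN, against 4233, 880, 1280, 1802 and 715 FPKM in CT. Its difference of 0.83 had an interval from -0.31 to 1.96. Of 17 megakaryocyte and platelet genes, 15 were lower in MN, with a median of -0.08, and 13 without CT 4, with a median of -0.05. Without CT 4 and MN 4 the median turned to 0.03, with 9 higher and 8 lower. Clec1b, a platelet receptor, differed by -0.40, and by -0.15 without CT 4.

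Among macrophage genes, 12 of 22 red-pulp and iron-recycling genes were higher in MN, with a median of 0.03. Spic, the transcription factor of red-pulp macrophages, had 30.0, 26.1, 36.3, 34.8 and 50.3 FPKM in MN, against 43.3, 42.5, 39.5, 41.2 and 41.2 FPKM in CT. Only MN 5 lay above the CT libraries, and the difference was -0.25, and -0.26 without CT 4. Fth1, the ferritin heavy chain, differed by -0.45, and by -0.17 without CT 4, which held 1094 FPKM. Lists of dendritic cells, monocytes, marginal-zone macrophages and marginal-zone B cells had medians of 0.11, 0.06, 0.11 and 0.05, and -0.0048, -0.07, 0.0046 and 0.04 without CT 4.

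Of 28 type I interferon-response genes, 14 were higher and 14 lower in MN, with a median of 0.01, and -0.02 without CT 4. Zbp1, a nucleic-acid sensor, was the 1 member with no overlap (0.268% of all genes tested in this direction), at 9.96 to 12 FPKM in MN, against 5.92 to 9.85 FPKM in CT. It differed by 0.31, and by 0.20 without CT 4. Isg20, an RNA exonuclease, differed by -0.60, and by -0.13 without CT 4, which held 376 FPKM. Inflammatory cytokines and chemokines split 9 to 9 over 18 tested, with a median of -0.01. Without CT 4, 17 of the 18 were lower in MN, with a median of -0.24. Il1a, the cytokine interleukin-1 alpha, had 3.67, 2.35, 5.02, 3.00 and 6.58 FPKM in MN, against 5.36, 8.77, 7.18, 3.48 and 4.02 FPKM in CT. In antigen presentation, Nlrc5, which drives MHC class I genes, differed by 0.31 ± 0.15, and H2-Ob, a chain of the class II modulator H2-O, by 0.37. These 2 differences were 0.18 and 0.11 without CT 4.

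Of 17 glucocorticoid-induced genes, 13 were higher in MN, with a median of 0.24, which was 0.05 without CT 4. Zbtb16, a transcription factor of this list, had 1.43, 1.22, 4.23, 2.97 and 2.37 FPKM in MN, against 1.17, 1.49, 1.41, 0.791 and 1.3 FPKM in CT. Its difference was 0.56 ± 0.25, and 0.48 without CT 4. Ddit4, an inhibitor of the growth kinase mTORC1, had 180 to 242 FPKM in MN, against 155 to 192 FPKM in 4 CT libraries and 13.5 in CT 4. Of 27 immediate early genes, which cells switch on within minutes of a stimulus, 23 were higher in MN, with a median of 0.13. Without CT 4, 19 were lower, with a median of -0.11. Dusp2, a phosphatase of MAP kinases, had 42.3 to 64.5 FPKM in MN, against 65.7 to 69.9 FPKM in 4 CT libraries and 7.90 in CT 4. Its difference was 0.34 with all libraries and -0.24 without CT 4. Ccn1, a matricellular protein induced early, ranged from 2.52 to 43.3 FPKM in MN and from 1.52 to 93.3 FPKM in CT.

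Most tested genes of translation and energy were slightly lower in MN, while the list means of the MN and CT libraries overlapped. Of 79 cytosolic ribosomal protein genes, 61 were lower in MN, with a median of -0.20. Without CT 4, 75 were lower, with a median of -0.15. Of 30 nuclear-encoded oxidative phosphorylation subunits, 23 were lower, with a median of -0.14, and 28 without CT 4, with a median of -0.18. The 2 members of that list with no overlap, against 0.351% of all genes in this direction, included Sdhb, an iron-sulfur subunit of complex II. Sdhb had 29.7, 29.6, 30.7, 30.6 and 29.0 FPKM in MN, against 34.0, 34.7, 31.7, 38.8 and 33.6 FPKM in CT, a difference of -0.20 ± 0.11. Mitochondrial ribosomal proteins had a median of -0.11, with 56 of 74 lower, and 72 lower without CT 4. Timm8b, an import chaperone of mitochondria, had 37.1 to 46.8 FPKM in MN, against 46.6 to 68.2 FPKM in CT. The lower values were not particular to MN. Against CT, the ribosomal list had medians of -0.36 in MM, -0.38 in OS and -0.73 in ON. The oxidative phosphorylation medians were -0.51, -0.42 and -0.75. These comparisons share the CT libraries. By library, the ribosomal list mean was -0.13, -0.10, -0.16, -0.22 and -0.33 in MN, against 0.30, -0.19, -0.15, 0.07 and -0.02 in CT. CT 1 was the highest for the ribosomal and the oxidative phosphorylation lists, at 0.30 and 0.44. For oxidative phosphorylation, CT 2 to CT 5 lay at -0.10, -0.07, -0.21 and -0.06, all within the MN range of -0.23 to -0.0066. For the ribosomal list, CT 2 and CT 3 lay within the MN range.

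All 13 mitochondrially encoded mRNAs were lower in MN, with a median of -0.47, and 10 were lower without CT 4, with a median of -0.08. mt-Co3, a subunit of cytochrome oxidase, had 28.5, 24.5, 26.3, 21.6 and 25.0 FPKM in MN, against 38.2, 28.6, 25.0, 139 and 42.4 FPKM in CT. All 32 proliferation genes were lower in MN, with a median of -0.27. Without CT 4, 27 were lower, with a median of -0.11. By library, the proliferation list mean relative to CT was -0.14, -0.18, -0.60, -0.34 and -0.20 in MN. In CT it was -0.15, -0.26, -0.14, 0.78 and -0.23, so the groups overlapped and CT 4 alone stood high. Mcm6, a subunit of the replicative helicase, had 40.3, 38.6, 30.8, 34.2 and 32.7 FPKM in MN, against 40.7, 39.7, 40.9, 105 and 40.6 FPKM in CT. Mcm3, of the same helicase, had 37.9 to 46.1 FPKM in MN, against 44.3 to 70.6 FPKM in CT. Of 37 proteasome subunits, 33 were lower in MN, with a median of -0.16, and 36 without CT 4, with a median of -0.09.

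Genes of fat that adjoins the spleen varied among single libraries. The list mean over 10 tested genes was -0.86, -0.84, 0.49, -1.03 and -0.59 in MN, against 0.69, 0.77, -0.9956, 0.11 and -0.58 in CT. MN 3, CT 1 and CT 2 stood high. Fabp4, a fatty-acid carrier, had 1.45, 1.38, 5.03, 1.27 and 1.95 FPKM in MN, against 9.39, 6.55, 1.24, 6.10 and 1.61 FPKM in CT, a difference of -0.76. Lpl, which releases fatty acids from lipoproteins, differed by -0.41 ± 0.18, and by -0.28 without CT 4. For genes also made in fat, the part of adjoining tissue was not tested.

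Messenger RNAs with a match to the seed of the mimic had nearly the same median difference as those without. Matches to the seed (CAGGACG, 7 bases) were counted in 3′ UTRs of 11899 tested genes, taken from the GENCODE vM21 transcripts on GRCm38. Of these genes, 366 (3.08%) held a match, with 191 higher and 175 lower in MN. Their median difference was 0.0040 log2 units, and 0.0021 over the 11533 genes without a match. Their 3′ UTRs had a median of 2188 bases, against 1113 bases for genes without a match. The 74 tested genes with the 8-base form (CAGGACGA), which pairs with the seed and has an A after it, had a median of 0.0023, with 39 higher and 35 lower. Without CT 4 the medians for 7 and 8 bases were 0.0046 and 0.02, and -0.01 for genes without a match. The 4 genes with the 8-base form and the highest levels are shown with their sites, the 8-base match in capitals, from the transcripts of the same set.
Rpl27a, chromosome 7: caggtagctCAGGACGActggt
Sdc3, chromosome 4: tggtgaggcCAGGACGAtttaa
Ankrd13a, chromosome 5: tagagaggaCAGGACGAacttg
Hnrnpdl, chromosome 5: accatcttaCAGGACGAcattg
Rpl27a, of the large ribosomal subunit, had 313, 319, 311, 267 and 260 FPKM in MN, against 396, 294, 308, 480 and 311 FPKM in CT, a difference of -0.26 that was -0.15 without CT 4. Sdc3, a cell-surface heparan sulfate proteoglycan, had 49.1 to 61.9 FPKM in MN, against 30.2 to 65.7 FPKM in CT. Ankrd13a, a ubiquitin-binding protein, had 44.1 to 51.7 FPKM in MN, against 48.7 to 49.2 FPKM in 4 CT libraries and 88.0 in CT 4. Hnrnpdl, an RNA-binding protein, had 40.4 to 52.9 FPKM in MN, against 26 to 53.5 FPKM in CT. Without CT 4 the differences of Sdc3, Ankrd13a and Hnrnpdl were 0.02, -0.04 and 0.03. A match describes letters in the sequence and is not evidence of binding, and a change in protein without a change in RNA would not be seen. Of 19 genes of microRNA processing and silencing, 9 were higher and 10 lower in MN, with a median of -0.01. Drosha, which cuts primary microRNA transcripts in the nucleus, had 6.53 to 7.91 FPKM in MN, against 7.46 to 8.4 FPKM in 4 CT libraries and 15.1 in CT 4.

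The other libraries of the same treatment, coded MM, differed from MN. In MN against MM, 27 of 15672 genes passed an adjusted p of 0.05 (limma), 18 higher in MN (0.115%) and 9 lower (0.0574%), and 18 of the 27 were pseudogenes. With values scaled to the total of reads, 18 were higher and 5 lower. The protein-coding genes lower in MN included Ccn2, Bmp2, Tcf7l2 and Ranbp9. Ccn2, a matricellular growth factor induced early, lies at chr10:24471340-24474581. It had 37.4, 30.2, 50.2, 34.0 and 27.1 FPKM in MN, against 94.0, 78.8, 83.9, 84.6 and 89.5 FPKM in MM. All MN libraries lay under all MM libraries, and Ccn2 was lower in MN by -1.27 ± 0.19 log2 units (limma adjusted p = 0.00611). In CT it had 38.7, 30.9, 26.2, 23.9 and 47.7 FPKM, and MN minus CT was 0.11, with an 95% interval from -0.28 to 0.49. This call was the 1 of the 4 that held in all 25 alternatives.

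Bmp2, a secreted ligand of the TGF-beta family, had 10.5, 10.1, 9.37, 6.31 and 7.49 FPKM in MN, against 16.7, 13.3, 13.8, 15.1 and 15.1 FPKM in MM, a difference of -0.71 ± 0.14 (limma adjusted p = 0.0353). Tcf7l2, a transcription factor of Wnt signalling, stood at 2.10 to 2.21 FPKM in MN, against 2.9 to 3.89 in MM, a difference of -0.47 (adjusted p = 0.0357 in limma). Ranbp9, a scaffold protein, stood at 11.4 to 14.0 FPKM in MN, against 15.3 to 19.9 in MM, a difference of -0.45 (adjusted p = 0.0194 in limma). The CT levels of the 3 genes were 7.48 to 10.4, 1.77 to 3.03 and 11.0 to 13.7 FPKM, and each range overlapped that of MN. The calls of Bmp2, Tcf7l2 and Ranbp9 were lost in 11, 13 and 8 of the 25 alternatives, among them leaving out MM 1, MM 4, MM 5, MN 1, MN 2, MN 3 or MN 5 singly. The count of 27 was 15 without MM 1, 1 without MM 4, 1 without MM 5, 1 without MN 1, 2 without MN 2, 2 without MN 3, 16 without MN 4 and 8 without MN 5. Without CT 4, which enters the shared estimate of spread, it was 54.

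Immediate early genes had a median of -0.94 in MN against MM, with 1 of 27 past the threshold (0.0574% of all genes were called lower), and neutrophil genes a median of 0.94, with none of 23. The median of all genes in this comparison was 0.0036. Glucocorticoid-induced genes had a median of -0.46 and inflammatory cytokines and chemokines -0.59, with none past the threshold in either. MM 2 held 15.4% pancreatic reads. Without it the count of calls was 20.

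MN was lower than OVA alone under the code OS in immediate early genes. In MN against OS, 453 genes passed an adjusted p of 0.05 (limma), 202 higher in MN (1.29%) and 251 lower (1.6%), and 302 of them were protein-coding. Of 27 immediate early genes, 12 fell past the threshold and none rose past it, with a median of -1.21, while the median of all genes was 0.0032. Atf3, a stress-induced transcription factor, had 2.53, 1.76, 3.39, 3.84 and 2.11 FPKM in MN. In OS it had 15.6, 33.1, 51.1, 28.7, 2.76 and 23 FPKM. OS 5, the lowest of OS, fell within the range of MN. Atf3 fell by 2.51 ± 0.53 log2 units (limma adjusted p = 0.0116). In CT it stood at 0.416 to 4.26 FPKM. Fosb, an AP-1 subunit, fell by 2.44 (limma adjusted p = 0.0116), Fos, its relative, by 2.45 (limma adjusted p = 0.0458) and Ccn1 by 3.04 (limma adjusted p = 0.0418). MN minus CT for Atf3, Fosb and Fos was 0.22, 0.13 and -0.30. Ccn2 fell by 1.18 (limma adjusted p = 0.00185) and Bmp2 by 0.83 (limma adjusted p = 0.00246).

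Il10, an anti-inflammatory cytokine, had 0.664, 0.598, 1.91, 1.16 and 0.934 FPKM in MN, against 10.6, 13, 23, 17.6, 0.853 and 2.81 FPKM in OS, and fell by 2.16 (limma adjusted p = 0.0294). Its CT values were 0 to 2.01 FPKM. The genes named as higher in MN than in OS were Mir301, Rps29, Tomm7, Mzb1 and Prr33. Rps29, of the small ribosomal subunit, had 1323, 1286, 1408, 1220 and 1277 FPKM in MN, against 433, 620, 957, 793, 180 and 322 FPKM in OS. No MN library overlapped OS, and Rps29 rose by 1.45 (limma adjusted p = 0.0476). Tomm7, of the mitochondrial import channel, rose by 1.26 and Prr33, a protein of little-known role, by 1.17. Mzb1, at 4.45 to 10.003 FPKM in OS, rose by 1.25 (limma adjusted p = 0.0484). Of 15 plasma-cell genes, 1 was called higher in MN than in OS and 3 lower, with a median of -0.03. Over all genes, 1.6% were called lower. Of 12 marginal-zone B-cell genes, 1 was called higher and 0 lower, with a median of -0.01. Mir301 rests on 2 to 8 reads in each MN library, against 0 to 1 in each OS and ON library and 0 to 2 in each CT library. It may have passed the filter mainly through the MN libraries, so its calls are not independent of how it entered the test. Light-chain V segments had 11 of 109 past the threshold, all higher in MN, with a median of 0.61. Of all genes tested, 1.29% were called higher in MN than in OS, and their median was 0.0032.

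The calls against OS depended on single libraries. The count of 453 was 245, 189, 203, 248 and 233 without MN 1 to MN 5 in turn, 281 without OS 2, 288 without OS 3, 274 without OS 4 and 1103 without CT 4. Ccn2, Bmp2 and Atf3 kept their calls in all 26 alternatives. So did Mir301, which may have passed the filter mainly through MN, where it is high. Ranbp9 lost its call in 1 of them, and Fosb in 1 of 25. Ccn1, Fos, Il10, Rps29, Tomm7, Mzb1 and Prr33 lost theirs in 12, 14, 11, 15, 10, 19 and 5 of 26. For Fos, leaving out any 1 MN library, OS 2, OS 3, OS 4 or OS 6 did so, with adjusted p up to 0.141 over the alternatives.

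**Figure D5:**
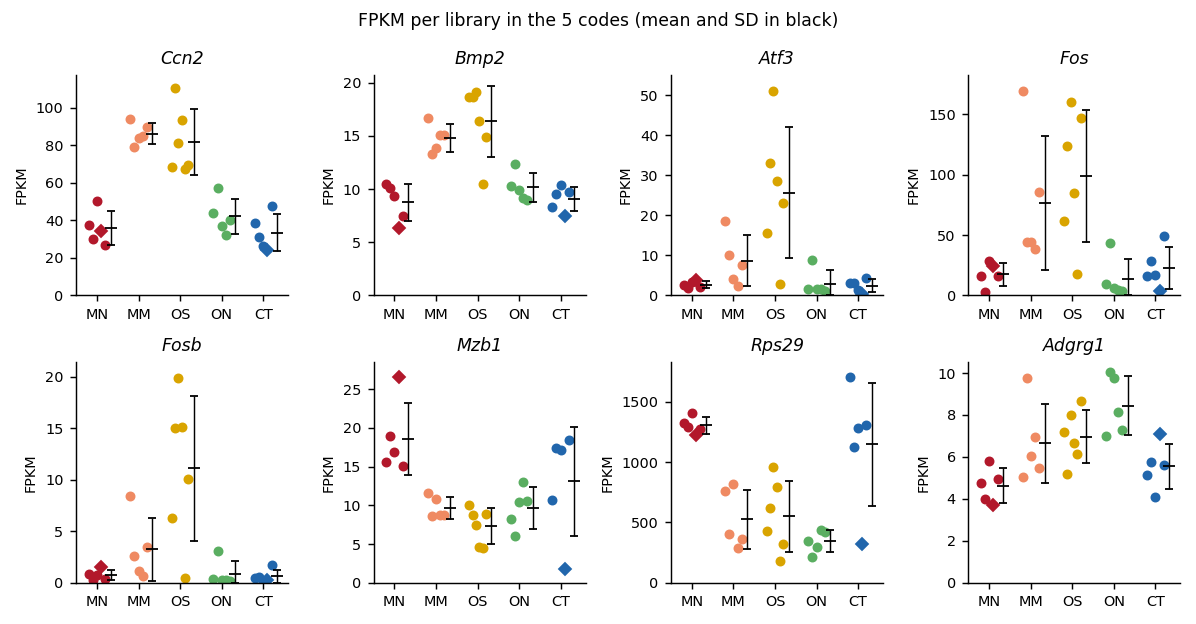
FPKM of 8 genes, 1 point per library, in MN, MM, OS, ON and CT, with mean and SD in black and MN 4 and CT 4 as diamonds. For Ccn2 and Bmp2 the MN, ON and CT values lie together under MM and most OS values, and for Rps29 the 5 MN values, 1220 to 1408 FPKM, lie above MM, OS and ON.

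Against OVA alone under the code ON, MN differed in 39 genes past an adjusted p of 0.05 (limma), 34 higher in MN (0.217%) and 5 lower (0.0319%), of which 13 were protein-coding. With values scaled to the total of reads, 45 were higher and 1 lower. Rps29 had 348, 217, 300, 436 and 419 FPKM in ON, all under the MN values, and rose by 1.96 ± 0.42 (limma adjusted p = 0.0447). Its CT values were 1707, 1123, 1282, 322 and 1305 FPKM. Pet100, an assembly factor of cytochrome oxidase, had 9.88 to 12.1 FPKM in MN, against 2.51 to 6.02 in ON, and rose by 1.34 (limma adjusted p = 0.0456). Rpl35a, of the large ribosomal subunit, rose by 1.25 and Llph, a nucleolar protein, by 0.73. Over 25 alternatives the calls of Rps29, Pet100 and Rpl35a were each lost in 14 and that of Llph in 12. Mir301 rose by 1.71 (limma adjusted p = 0.0142), a call lost in 4 of the 25, and may have passed the filter mainly through MN. Of 79 ribosomal protein genes 2 rose, and the median of the list was 0.47, while the median of all genes was 0.0018. Immediate early genes had a median of 0.15, with none past the threshold.

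The genes that were lower in MN than in ON included Adgrg1, an adhesion receptor, with 4.75, 3.97, 5.79, 3.70 and 4.97 FPKM in MN, against 6.99, 10.03, 9.77, 8.15 and 7.27 FPKM in ON. The groups did not overlap. Adgrg1 fell by 0.74 (limma adjusted p = 0.0370), a call lost in 12 of 25 alternatives, and stood at 4.10 to 7.11 FPKM in CT. Grb10, a signalling adaptor, fell by 0.52, and Taf4, a TFIID subunit, by 0.36. Their calls were lost in 15 and 11 of the 25 alternatives. ON 2 and ON 3 hold pancreatic reads. Without ON 2, ON 3 and MM 2 no gene passed, 598 genes had an unadjusted p under 0.05, and the smallest adjusted p in limma was 0.111. The count of 39 was 20, 9, 14, 20 and 22 without MN 1 to MN 5 in turn, 16 without ON 1, 23 without ON 2, 7 without ON 3 and 72 without CT 4. The part of pancreatic RNA in these differences was not tested.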

How the data were processed

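RNA of mouse spleen was sequenced in 26 libraries after poly(A) selection and random priming, per the labels' protocols, which state neither strand nor molecular identifiers. Per the submitters' processing notes, with no roles given, the tools included the aligner HISAT2 2.0.5, with featureCounts 1.5.0-p3 and StringTie 1.3.3b, and also edgeR 3.24.3, DESeq2 1.20.0 and CASAVA. No genome build is named in them, and positions in the deposited table are printed as they stand. The deposited table holds FPKM per gene, computed by the authors relative to an effective library size that differs from the total of reads. FPKM carry no depth, but all were whole multiples of the value of 1 read within a tolerance of 0.05, so reads per library were recovered. Precision and floors of low entries cover counting error only.

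Genes at 1 FPKM or more in at least 5 libraries (15672 of 56392) were tested on log2(FPKM + 1), which understates changes of low genes, with limma 3.58.1 in R 4.3.3. Each code was a group and the variance followed a trend. All 26 libraries shared 1 estimate of the spread, with Benjamini-Hochberg adjustment of p over all genes at a threshold of 0.05. Tables and figures used Python 3.11.15, pandas 2.3.3 and matplotlib 3.10.9. The limma step was run on simulated data with 1 SD per gene for all codes and no outlying library. That run does not cover a library like CT 4 or a spread that differs between codes.

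Lists numbered 52, of which 40 by symbol, with 749 of 756 symbols matched, and 12 by name pattern. Members and lists were chosen with earlier results of these data known. No gene passed for MN against CT, so up to 12 genes in each direction were named by the smallest unadjusted p among those differing by at least 0.5 log2 units with a mean of at least 5 FPKM in the higher group, and up to 3 members of each list by the smallest p. For the other comparisons up to 5 genes past the threshold in each direction were named by size. Unnamed genes, pseudogenes and receptor segments were left out of this naming, except as list members. Same-numbered libraries of MN and CT did not deviate together, and the fit has no replicate term. Alternatives covered scaling, pseudocount (0.1 and 0.5), filter, library weights, voom on the recovered reads, the libraries in the fit, and leaving out each library.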

Additional observations from a re-analysis of the deposited data

Results flagged for a closer look

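Over 99 genes and the MN and CT groups, 198 groups of 5 libraries were looked at for a library whose gap to its nearest neighbour exceeds 0.71 of the group's range. In independent, unselected groups chance gives about 1 in 20. These genes were mostly named for their values in the same 10 libraries, so that rate is no measure for the 39 groups that stood out. CT 4 accounted for 26 of these, 20 as the highest and 6 as the lowest library of its group.

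Red-cell, replication and mitochondrial genes were among those where CT 4 was highest. Its values there were 212 FPKM for Urod, 494 for Bpgm, 839 for Ube2l6, 74.0 for Isca1, 196 for Slc25a39, 73.2 for Minpp1 and 120 for Ube2r2. For genes of replication and mitochondria they were 105 FPKM for Mcm6, 70.6 for Mcm3, 18.7 for Tyms, 23.1 for Melk, 6054 for mt-Rnr1 and 139 for mt-Co3. The others were 1623 FPKM for Rps12, 251 for Bag1, 78.2 for Gstm5, 14.9 for Vwf, 1094 for Fth1, 15.1 for Drosha and 376 for Isg20. CT 4 was lowest for Derl3 at 2.17 FPKM, Insl3 at 0, Pou2af1 at 70.3, Ddit4 at 13.5, Dusp2 at 7.90 and H2-Ob at 15.2.

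MN 4 was highest of its group for the antibody chains Ighg1 at 166 FPKM, Igha at 231 and Iglc1 at 1080, and for Cebpe, of granulocyte precursors, at 28.7. MN 3 was highest for Ddit4 at 242 FPKM, Igkv4-74 at 156, Clec1b at 6.46, Fabp4 at 5.03 and Retn, a hormone made in fat, at 1.66. MN 1 was highest for Llph at 24.7 FPKM. CT 5 was highest for Ccn1 at 93.3 FPKM and Fosb at 1.69. CT 1 was lowest for Igkv4-74 at 25.1 FPKM.

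MN and MM share 1 treatment in the labels, yet 4 genes named here differed between them past the threshold, all lower in MN. Over all genes, pseudogenes and unnamed ones included, 18 passed as higher in MN and 9 as lower. The log2 difference was -1.27 for Ccn2, -0.71 for Bmp2, -0.47 for Tcf7l2 and -0.45 for Ranbp9, with limma adjusted p of 0.00611, 0.0353, 0.0357 and 0.0194. The calls of Bmp2, Tcf7l2 and Ranbp9 were lost in 11, 13 and 8 of 25 alternatives. What the codes stand for is not given in the labels, and the source of the difference was not tested.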

How the results depend on the processing

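No gene passed the adjusted threshold for MN against CT under any of 26 alternatives, limma's array weights and voom on recovered reads among them, with 123 to 1298 genes at an unadjusted p under 0.05. The planned edgeR test on recovered reads was not run. Against MM the count of 27 became 474 with library weights, 7 with no filter, 123 with only the 2 codes in the fit, and 1 to 54 on leaving out 1 library. Against OS the count of 453 became 1746 with library weights, 246 with no filter, 248 with values scaled to total reads, and 189 to 1103 on leaving out 1 library. Against ON the count of 39 became 755 with library weights, 23 with no filter, 632 with only the 2 codes in the fit, 23 with a pseudocount of 0.1, 0 without the 3 libraries with pancreatic reads, and 7 to 72 on leaving out 1 library. Leaving out CT 4 from all comparisons, scaling to total reads, and fitting MN and CT alone without CT 4 were chosen after seeing the data. With the replicate number as a block the counts were 0, 21, 258 and 19 against CT, MM, OS and ON. Same-numbered MN and CT libraries correlated at -0.135 to 0.0507 in their deviations, so the numbers do not pair them. The MN minus CT difference turned direction for Clec1b (0.0034) and Dusp2 (-0.21) with library weights. It also turned without CT 4 and MN 4 for Cebpe (-0.0499), Vwf (0.032) and Dusp2 (-0.24), and without CT 4 alone for Dusp2 (-0.24). Over all settings that left out 1 library, or CT 4 and MN 4, it ranged from -0.0499 to 1.07 for Cebpe, -0.24 to 0.50 for Dusp2 and -0.45 to 0.032 for Vwf. The cause was not tested. Scaling to total reads moved the medians of genes with a 7-base match, an 8-base match and no seed match to 0.09, 0.08 and 0.08. Low entries such as Mir301 rest on few reads, which limits their precision.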
